A study of Mus musculus with 10 samples.

Results

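The interferon response genes are 32 mouse genes that interferons switch on, or that carry the interferon signal, and they are followed here in the livers of mice with and without the glucagon receptor. The members were chosen by name, as every non-control probe of the array named for one of the 32 genes or for an older synonym of it. All 32 were found, on 51 of the 41174 probes of the array: 28 members under their present symbol and 4 under an older name (Irf9 as Isgf3g, Gbp3 as Gbp4, Gbp6 as Mpa2l and Irgm1 as Irgm). After a filter on dim probes, 31 of the 32 members were tested among 18921 genes. Oas1g was well above background on 0 of 10 arrays and is not described further.

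The study compared liver gene expression in 5 mice whose genotype at the glucagon receptor gene Gcgr is given as ko/ko (KO) with 5 mice given as wt/wt (WT). The KO group held 3 females (KO 2, KO 3 and KO 4) and 2 males (KO 1 and KO 5), and the WT group held 2 females (WT 3 and WT 4) and 3 males (WT 1, WT 2 and WT 5). Each liver is described as coming from its own mouse and was taken as 1 replicate. The part of the gene removed, the strain, the age, the feeding state and any treatment are not given in the sources used here. Each liver's RNA was labelled with the red dye Cy5 and hybridised beside a pooled mouse reference RNA labelled with Cy3. A value is therefore the log2 ratio of liver over reference for 1 probe. A value below 0 means less signal in liver than in the reference, and values of different genes cannot be ranked as levels.

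Interferons are secreted proteins that warn cells of infection. Type I interferons bind the receptor pair Ifnar1 and Ifnar2, and the signal brings a complex that holds Stat2 and Irf9 to a promoter element called the interferon-stimulated response element (ISRE). Interferon gamma acts at a different element, the gamma-activated site (GAS), and strongly raises the guanylate-binding proteins, the immunity-related GTPases, the immunoproteasome and Tap1. In the liver, hepatocytes, resident macrophages, endothelial cells and lymphocytes can all respond, and in a whole-liver extract fewer cells of a type and less RNA per cell cannot be told apart.

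The promoter sequences of the members that fell in KO livers, and of 2 with large differences that did not pass, show what these elements look like. The windows are RefSeq's for build GRCm38.p6, run 5′ to 3′ along the gene's own strand and span its start. Capitals mark matches to the ISRE core, GAAA followed by any 2 bases and GAAA again, read on either strand; overlapping matches run together. Of the 32 members, 26 had an entry, with 33 promoters. Usp18 had none.
Isg15 (chr4:156200769-156201068, minus strand): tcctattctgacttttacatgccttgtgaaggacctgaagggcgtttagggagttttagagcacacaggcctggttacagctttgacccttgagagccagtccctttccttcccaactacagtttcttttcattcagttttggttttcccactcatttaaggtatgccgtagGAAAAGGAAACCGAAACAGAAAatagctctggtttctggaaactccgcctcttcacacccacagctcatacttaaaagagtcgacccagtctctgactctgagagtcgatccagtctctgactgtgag
Ifih1 (chr2:62646206-62646505, minus strand): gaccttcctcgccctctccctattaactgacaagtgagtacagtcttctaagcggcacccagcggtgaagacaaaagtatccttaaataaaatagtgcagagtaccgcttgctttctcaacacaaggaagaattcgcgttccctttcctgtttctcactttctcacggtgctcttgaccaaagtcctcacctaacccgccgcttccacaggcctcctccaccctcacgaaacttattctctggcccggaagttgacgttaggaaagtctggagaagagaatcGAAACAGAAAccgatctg
Ifit1 (chr19:34640639-34640938, plus strand): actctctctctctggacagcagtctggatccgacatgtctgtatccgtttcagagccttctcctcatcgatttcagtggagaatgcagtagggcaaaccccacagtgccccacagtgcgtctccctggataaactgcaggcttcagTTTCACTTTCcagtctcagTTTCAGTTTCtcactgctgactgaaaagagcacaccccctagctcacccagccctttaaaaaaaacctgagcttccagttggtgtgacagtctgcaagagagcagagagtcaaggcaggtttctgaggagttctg
Tap1 (chr17:34187306-34187605, plus strand): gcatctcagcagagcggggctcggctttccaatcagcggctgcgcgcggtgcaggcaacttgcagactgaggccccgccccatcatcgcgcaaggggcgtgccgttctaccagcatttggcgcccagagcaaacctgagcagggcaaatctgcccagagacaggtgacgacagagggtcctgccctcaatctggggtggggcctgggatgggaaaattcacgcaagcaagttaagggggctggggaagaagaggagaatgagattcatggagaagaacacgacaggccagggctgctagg
The Isg15 window held 3 overlapping matches, whose first bases lie at -78, -72 and -66 from the gene's start. Ifit1 held 2, at -104 and -85 on the opposite strand, and Ifih1 held 1 at position 32 after the start. Tap1's window held no match to either element searched. Of the 33 member promoters, 14 (42.4%) held the ISRE core, in 14 of the 26 members, against 3.44% of all 32841 RefSeq promoters. The GAS core TTCNNNGAA was found in 7 of the 33 (21.2%), against 8.3% of all promoters; both strands were searched and no GAS match is in the 4 windows printed. A match is a stretch of letters and was not tested for binding here.

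The labels and arrays were checked first. Gcgr stood between 0.28 and 0.36 in the KO livers and between 7.74 and 8.14 in the WT livers, a difference of -7.66 on the log2 scale (limma adjusted p = 1.101e-13). The 5 tested hepatocyte markers averaged 7.08 to 7.19 in KO livers and 6.83 to 7.49 in WT livers, far above the reference RNA. The arrays lay on 4 slides. Slide 1 held KO 1, KO 2, WT 1 and WT 2, slide 2 held KO 3 and KO 4, slide 3 held KO 5, WT 3 and WT 4, and slide 4 held WT 5. Over all genes 1127 of 18921 (5.96%) passed for KO minus WT, at a limma adjusted p under 0.05 in a model with genotype and sex.

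The members varied more between livers than most genes did. Their residual SD, the spread left after genotype and sex, had a median of 0.27 on the log2 scale, against 0.14 over all genes tested. Gbp6 spanned 3.36 log2 units across the 10 livers, Igtp 2.997, Gbp3 2.60 and Ifit1 2.01, while Oas3 spanned 0.34 and Isg20 0.37. One liver, WT 4, stood apart from the rest. It was the highest of the 10 livers for 18 of the 31 members, against 12.2% of all genes, and WT 3 was the highest for 7, against 10.2% of all genes. Both are WT females on slide 3, and counts, group medians and the values that moved most are also given without them.

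**Figure D1:**
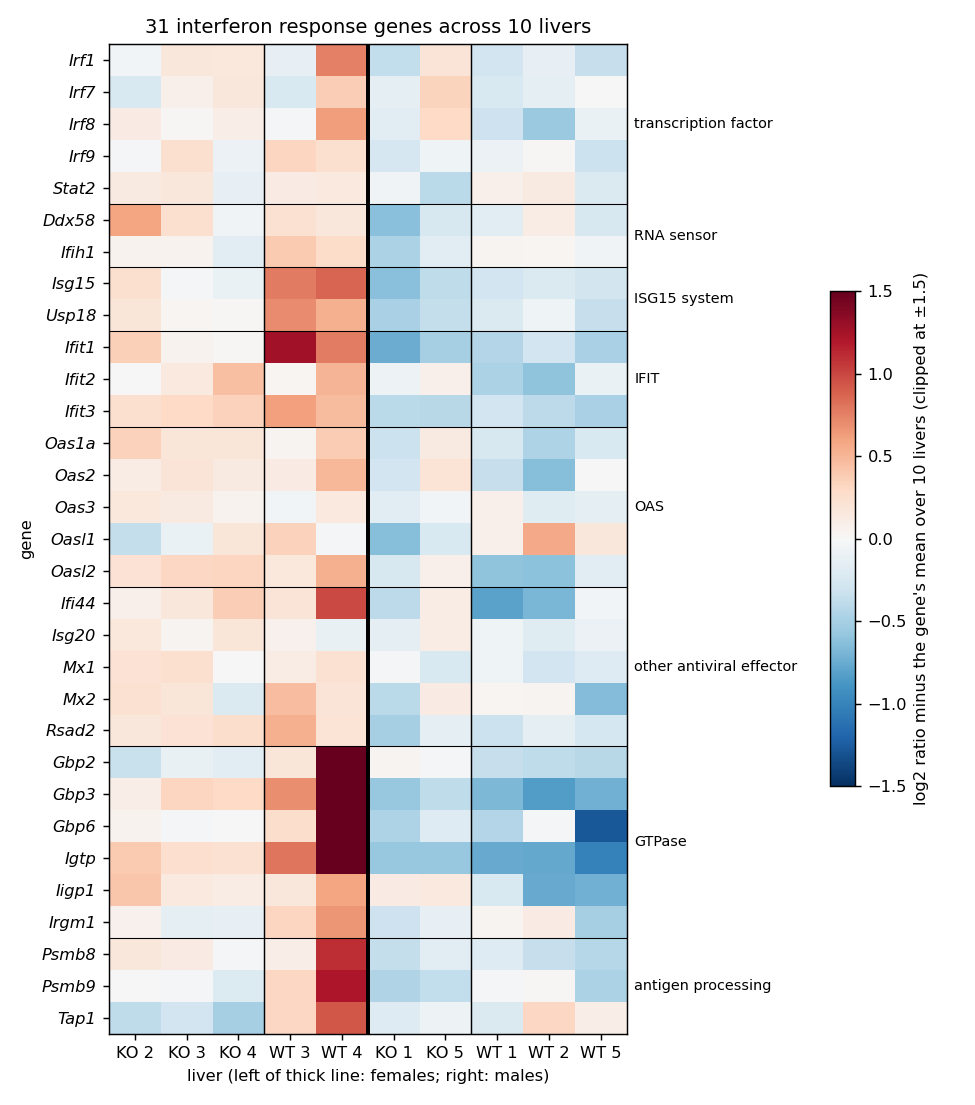
Heat map of the 31 tested interferon response genes (rows, grouped by role) in the 10 livers (columns), with females left of the thick line and males right of it, and KO left of WT within each sex. Colour is the log2 ratio minus the gene's mean over the 10 livers, from -1.5 to 1.5; the WT 4 column is darkest in the GTPase and antigen processing rows, and the female side is red for most genes.

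Which interferon response genes change when the glucagon receptor is missing was read from KO minus WT, with sex in the model. Of the 31 members tested, 3 fell in KO livers and 0 rose, against a background of 3.08% of all genes lower and 2.88% higher. The 3 were Isg15, Usp18 and Ifih1, by 1.43-fold, 1.30-fold and 1.27-fold. The median over the 31 members was -0.14, against -0.0028 over all genes tested, with 21 members below 0 and 10 above. At an unadjusted p under 0.05, 8 members were lower, against 20.9% of all genes in either direction. In 0 members did every KO liver lie below every WT liver, against 3.07% of all genes, and in 0 did every KO liver lie above every WT liver, against 2.95%.

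Isg15 encodes a ubiquitin-like protein that is attached to other proteins during the interferon response. Isg15 stood at -0.02, -0.29 and -0.36 in the KO females and -0.89 and -0.65 in the KO males, against 0.51 and 0.61 in the WT females and -0.55, -0.48 and -0.54 in the WT males. Within each sex every KO liver lay below every WT liver, but the KO females were above the WT males. The difference was -0.52 on the log2 scale (SE 0.11, limma adjusted p = 0.0232). The array places the gene's only probe on chromosome 17, at chr17:44534906-44534965 of the array's build mm7. RefSeq places Isg15 on chromosome 4 in GRCm38.p6. The array ties the probe to the RefSeq transcript of Isg15, and the probe was used under that name.

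Usp18, the protease that takes Isg15 off proteins and also damps the type I receptor at Ifnar2, moved the same way. The Usp18 log2 ratios were -0.90, -1.05 and -1.06 in KO females and -1.57 and -1.44 in KO males, against -0.37 and -0.55 in WT females and -1.30, -1.15 and -1.43 in WT males. The pattern of the 4 groups was that of Isg15, with no overlap between genotypes within a sex. Among males, KO 5 at -1.44 and WT 5 at -1.43 nearly met. Usp18 differed by -0.38 (SE 0.09, limma adjusted p = 0.0355).

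Ifih1 encodes MDA5, a sensor of long double-stranded RNA. In KO livers Ifih1 was at 2.55, 2.55 and 2.34 in the females and 2.02 and 2.32 in the males, and in WT livers at 2.89 and 2.78 in the females and 2.54, 2.52 and 2.45 in the males. Its KO livers lay below the WT livers of the same sex throughout, while the KO females and WT males overlapped. The difference was -0.34 (SE 0.08, adjusted p = 0.0267). Ifih1 has a second probe, which differed by -0.21 and did not pass (adjusted p = 0.289 in a limma fit on single probes). Ddx58, which encodes the related sensor RIG-I, differed by -0.14 and did not pass (adjusted p = 0.638).

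**Figure D2:**
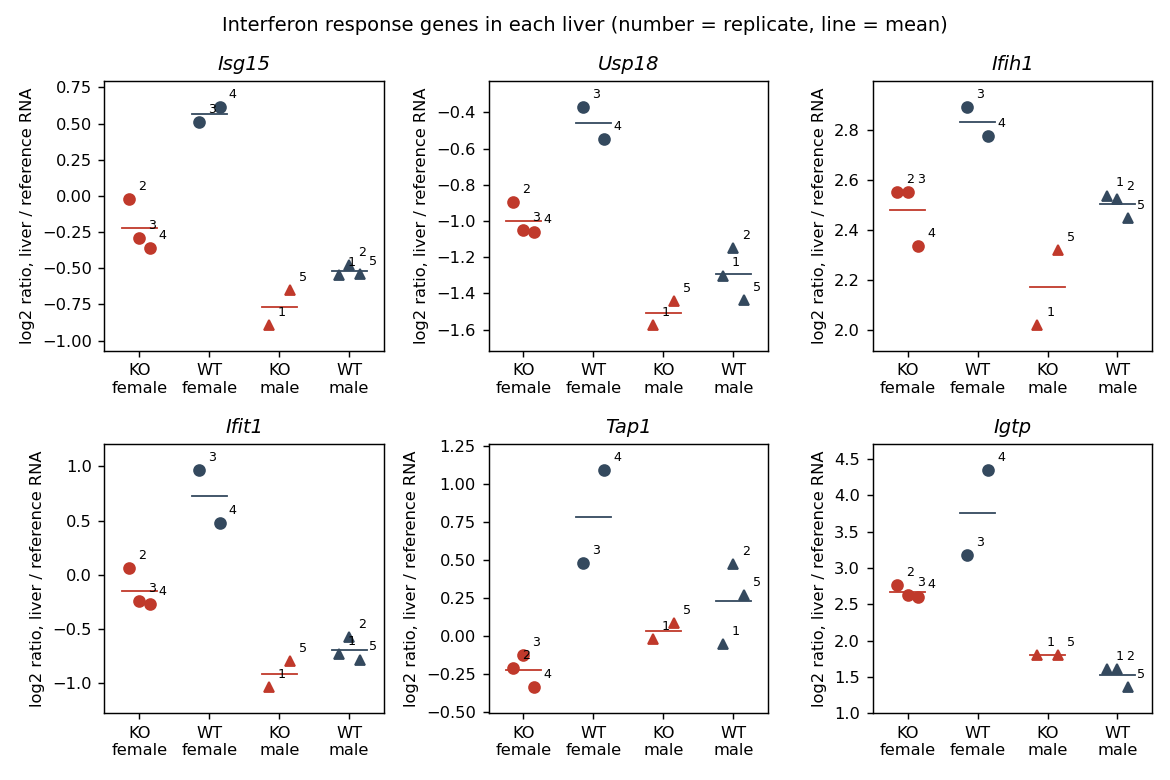
Log2 ratio of liver over reference RNA (vertical axis) for 6 interferon response genes in each of the 10 livers, in the order KO female, WT female, KO male and WT male. Circles are females, triangles males, numbers are replicate numbers and lines are group means; the 2 WT females are the highest livers for Isg15, Usp18, Ifih1 and Ifit1, and WT 4 lies apart from WT 3 for Igtp.

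Of the larger differences that did not pass, Tap1, a subunit of the transporter that carries peptides to class I molecules, had the largest fitted value of the 31 members. For Tap1 the KO females had -0.22, -0.13 and -0.34 and the KO males -0.02 and 0.08, while the WT females had 0.48 and 1.09 and the WT males -0.06, 0.47 and 0.26. Every KO female was below every other liver, and the males of both genotypes overlapped. Tap1 differed by -0.60 (SE 0.18, limma adjusted p = 0.0679). Psmb9, an interferon-induced catalytic subunit of the immunoproteasome, had a like difference of -0.54 (SE 0.18, adjusted p = 0.104). Psmb9 stood at 0.60, 0.57 and 0.39 in the KO females and 0.14 and 0.23 in the KO males, against 0.91 and 1.81 in the WT females and 0.57, 0.61 and 0.12 in the WT males. WT 4 was the highest liver by a wide margin, and the genotypes overlapped among males. Psmb8, a second such subunit, differed by -0.23 (adjusted p = 0.521). Without WT 4 the differences were -0.39 for Tap1, -0.30 for Psmb9 and 0.032 for Psmb8, none of which passed.

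Ifit1 encodes a protein that binds viral RNA lacking the cell's own cap marks. The Ifit1 log2 ratios were 0.07, -0.24 and -0.27 in KO females and -1.04 and -0.79 in KO males, against 0.97 and 0.48 in WT females and -0.73, -0.58 and -0.78 in WT males. Within each sex the KO livers were below the WT livers, although among males KO 5 at -0.79 and WT 5 at -0.78 nearly met. The difference of -0.55 (SE 0.15) just missed the threshold at a limma adjusted p = 0.0503. Its neighbours in the IFIT family differed by -0.14 for Ifit3 and 0.16 for Ifit2, and neither passed. Oasl1, which in mice holds back the translation of Irf7, differed by -0.48 (SE 0.15, adjusted p = 0.0946). In KO livers Oasl1 was at -0.57, -0.32 and -0.03 in the females and -0.85 and -0.44 in the males, and in WT livers at 0.13 and -0.23 in the females and -0.14, 0.35 and -0.04 in the males. In males the KO livers lay below the WT livers, and in females the ranges overlapped. The other 4 OAS genes tested, which make the messenger that activates RNase L or are relatives of those that do, lay between 0.02 and 0.16 and did not pass.

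The 6 interferon-inducible GTPases, which act on the membranes around intracellular pathogens, had a median of -0.35, and 0 of 6 passed in either direction. Without WT 4 their median was 0.023, with 3 above 0 and 3 below: Gbp2 at 0.087, Gbp3 at -0.0095, Gbp6 at 0.055, Iigp1 at 0.46, Igtp at -0.027 and Irgm1 at -0.22. Their fitted differences lay between -0.46 for Gbp6 and 0.28 for Iigp1. For Gbp6 the KO females had 1.73, 1.65 and 1.67 and the KO males 1.21 and 1.48, while the WT females had 1.94 and 3.76 and the WT males 1.24, 1.66 and 0.40. WT 4 alone was above 2 among the 10 livers and WT 5 alone below 1. Irgm1 differed by -0.33 (adjusted p = 0.199); its second probe differed by -0.44 and passed in the fit on single probes (adjusted p = 0.0441). The 5 transcription factors Irf1, Irf7, Irf8, Irf9 and Stat2 lay between -0.15 and 0.08 with 0 of 5 passing, and the 5 other antiviral effectors (Isg20, Mx1, Mx2, Rsad2 and Ifi44) between -0.12 and 0.13 with 0 of 5 passing.

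The 3 calls were lost when some single livers were left out, and the count over all genes moved too. Without KO 1, without KO 4 or without WT 3, 0 of the 31 members passed. Over all genes 596 passed without KO 1 and 667 without KO 4, against 1127 with every liver. Without KO 1 the fitted differences were -0.53 for Isg15, -0.39 for Usp18 and -0.29 for Ifih1. Without KO 2 or without KO 3, 2 members passed, where 811 and 862 of all genes did. Without WT 2 or without WT 4, 1 passed (Isg15 without WT 2, Ifih1 without WT 4), and without WT 5, 6 passed. Counts over all genes are not given here for each WT liver left out, and their range is in the last section. With each array centred on its median in place of loess, 0 members passed, where 279 of all genes did. The median over the 31 was then -0.0060, against 0.066 over all genes. With no sex term, or with outlier spots removed only after background correction, 0 members passed, where 619 and 337 of all genes did. The median over the members was -0.0095 without WT 4 and -0.15 without WT 3. With slide as a block, 2 members passed (Isg15, adjusted p = 0.0219, and Usp18, 0.0436) and Ifih1 did not (0.0853), with a median of -0.14. Over all genes 1202 passed in that fit. Within slide 1, KO 1 minus the mean of WT 1 and WT 2, all males, had a median of -0.12, with 19 members below 0 and 12 above. On slide 3 the KO liver was male and both WT livers female, so the median there, -0.49, also includes the sex difference.

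More members passed for sex than for genotype. Of the 31 members, 15 were higher in females than in males and 0 lower, against a background of 4.99% of all genes higher and 6.55% lower in females. All 31 fitted differences were above 0, with a median of 0.43, against 0.0032 over all genes. In 10 members (Ifit1, Ifit3, Isg15, Usp18, Oasl2, Gbp3, Rsad2, Mx1, Igtp and Psmb8) every female liver, KO or WT, lay above every male liver, against 3.53% of all genes.

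**Figure D3:**
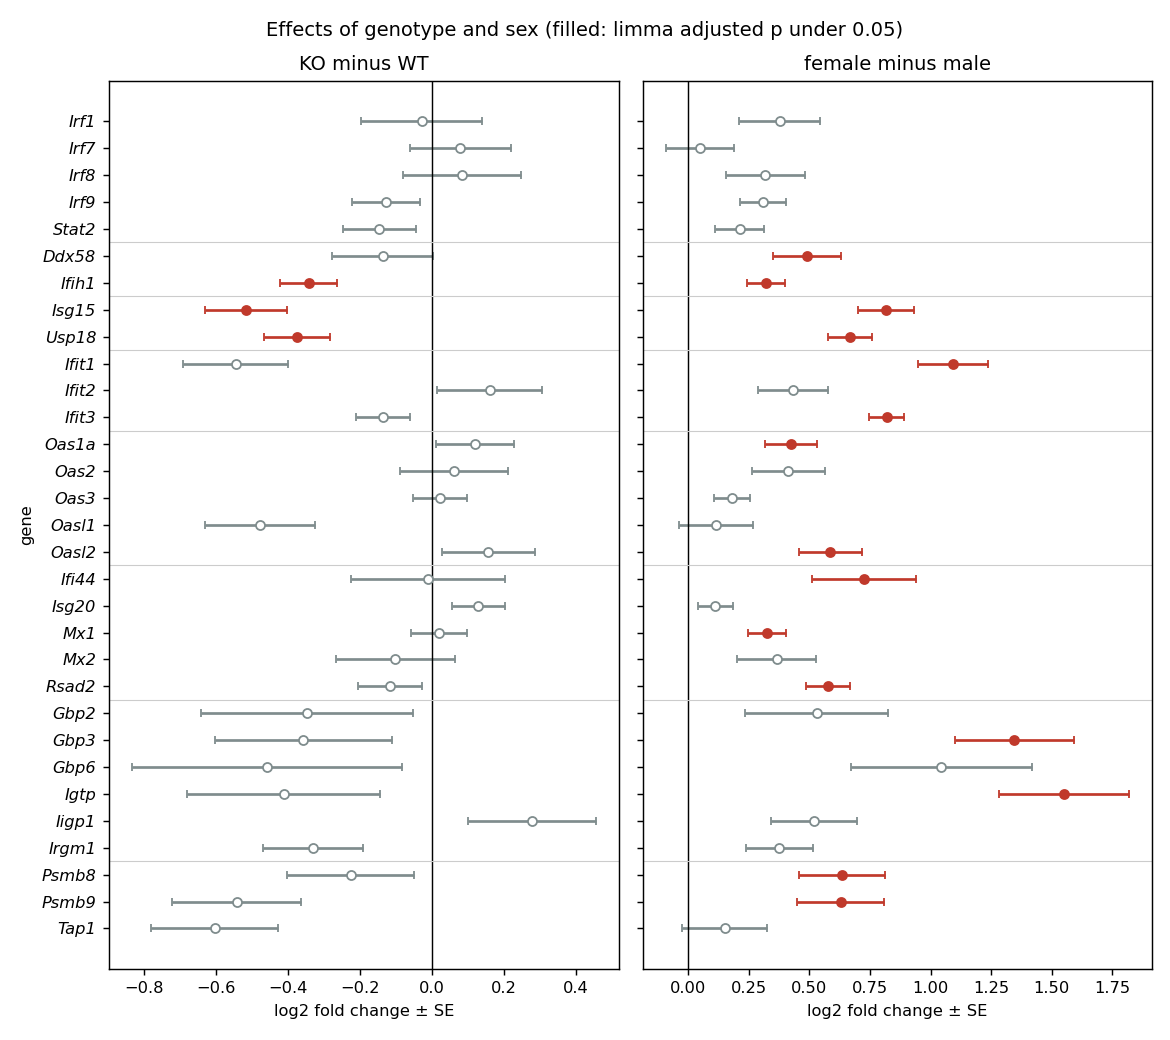
Fitted log2 fold changes for the 31 tested members (rows), KO minus WT on the left and female minus male on the right, with bars of 1 SE from limma over 10 livers. Filled red points passed at an adjusted p under 0.05; 3 points are filled on the left, all below 0, and 15 on the right, all above 0.

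Igtp, an immunity-related GTPase also called Irgm3, had the largest sex difference, 1.55 (SE 0.27, limma adjusted p = 0.00300), or 2.93-fold. Igtp stood at 2.77, 2.63 and 2.60 in the KO females and 1.80 and 1.80 in the KO males, against 3.18 and 4.35 in the WT females and 1.61, 1.61 and 1.36 in the WT males. All females were above all males in both genotypes. Gbp3, a guanylate-binding protein, followed with 1.34 (SE 0.25, adjusted p = 0.00428). The Gbp3 log2 ratios were 0.99, 1.20 and 1.19 in KO females and 0.31 and 0.50 in KO males, against 1.58 and 2.64 in WT females and 0.21, 0.04 and 0.16 in WT males. The KO females stood between the males and the WT females. Gbp6 had a sex difference of 1.04 but did not pass (limma adjusted p = 0.102), with WT 4 and WT 5 at its ends. Without WT 4 the sex differences were smaller, 1.17 for Igtp, 0.997 for Gbp3 and 0.53 for Gbp6. Gbp2 went from 0.53 to 0.094. Ifit1, at 1.11 without WT 4, was then above Gbp3.

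In the IFIT family, Ifit1 was higher in females by 1.09 (SE 0.15, limma adjusted p = 5.42e-04) and Ifit3 by 0.82 (SE 0.07, adjusted p = 4.54e-05). In KO livers Ifit3 was at 1.52, 1.57 and 1.62 in the females and 0.87 and 0.86 in the males, and in WT livers at 1.90 and 1.75 in the females and 0.99, 0.88 and 0.79 in the males. The KO females lay below the WT females, and the males of both genotypes overlapped. Isg15 was higher in females by 0.82 (adjusted p = 7.79e-04) and Usp18 by 0.67 (adjusted p = 6.53e-04), so both members of the Isg15 system were lower in KO livers and higher in females. Ifit2 differed by 0.43 and did not pass (adjusted p = 0.084).

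Both RNA sensors were higher in females, Ifih1 by 0.32 (adjusted p = 0.0222) and Ddx58 by 0.49 (limma adjusted p = 0.0434). The second Ifih1 probe differed by 0.27 and did not pass (adjusted p = 0.139, limma on single probes). In that fit both other kept probes of Ddx58 passed, at 0.49 and 0.32. For Ddx58 the KO females had 0.90, 0.55 and 0.26 and the KO males -0.31 and 0.07, while the WT females had 0.54 and 0.48 and the WT males 0.15, 0.43 and 0.07. KO 2 was the highest liver and KO 1 the lowest, and the sexes overlapped among the rest. Of the OAS genes, Oasl2 was higher in females by 0.59 (adjusted p = 0.0129) and Oas1a by 0.42 (adjusted p = 0.0265). Oasl2 stood at -0.34, -0.26 and -0.24 in the KO females and -0.81 and -0.49 in the KO males, against -0.40 and -0.03 in the WT females and -1.17, -1.18 and -0.73 in the WT males. The Oas1a log2 ratios were -0.19, -0.35 and -0.35 in KO females and -0.86 and -0.40 in KO males, against -0.50 and -0.15 in WT females and -0.77, -0.99 and -0.77 in WT males. For Oasl2 all females were above all males, and for Oas1a KO 5 lay among the females.

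Rsad2, which encodes the antiviral enzyme viperin, was higher in females by 0.58 (SE 0.09, limma adjusted p = 0.00149). In KO livers Rsad2 was at 0.56, 0.61 and 0.65 in the females and -0.11 and 0.25 in the males, and in WT livers at 0.92 and 0.60 in the females and 0.07, 0.24 and 0.13 in the males. Females and males did not overlap, and the genotypes did. The other 2 kept Rsad2 probes had smaller sex differences, 0.29 (adjusted p = 0.0436) and 0.12 (0.450, limma on single probes). Mx1, an antiviral GTPase of the dynamin family, differed by 0.32 (adjusted p = 0.0218), although its probe was well above background on only 3 KO and 2 WT arrays. For Mx1 the KO females had 0.29, 0.31 and 0.07 and the KO males 0.04 and -0.16, while the WT females had 0.18 and 0.30 and the WT males 0.00, -0.22 and -0.13. All its values lay near the reference level. Ifi44 was higher in females by 0.73 (adjusted p = 0.0494), with the 2 sexes overlapping. Ifi44 stood at -1.69, -1.59 and -1.40 in the KO females and -2.16 and -1.66 in the KO males, against -1.57 and -0.78 in the WT females and -2.57, -2.45 and -1.82 in the WT males. WT 4 was the highest liver for Ifi44 and WT 1 the lowest. Its second probe differed by 0.28 and did not pass (adjusted p = 0.0696), and without WT 4 the first differed by 0.49 and did not pass (0.134).

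Psmb8 and Psmb9 were higher in females by 0.63 (adjusted p = 0.0393 and 0.0436, limma), while Tap1 differed by 0.15 (adjusted p = 0.660). The Psmb8 log2 ratios were 0.40, 0.36 and 0.22 in KO females and -0.12 and 0.07 in KO males, against 0.34 and 1.34 in WT females and 0.05, -0.11 and -0.19 in WT males. In Psmb8, WT 4 lay apart from the other females, which were themselves above all males. Without WT 4 the differences were 0.38 for Psmb8, which still passed (adjusted p = 0.0212), and 0.39 for Psmb9, which did not (0.0666). None of the 5 transcription factors passed for sex, with differences between 0.05 for Irf7 and 0.38 for Irf1.

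Without WT 4, 10 members passed for sex with a median of 0.34; Oas1a, Mx1, Ifi44, Ddx58 and Psmb9 did not. Without WT 3, 12 passed with a median of 0.50, and without KO 1, KO 2 or KO 3, 9 passed. With slide as a block 8 passed (Ifit1, Ifit3, Isg15, Usp18, Oasl2, Gbp3, Rsad2 and Igtp), 29 of 31 differences were above 0 and the median was 0.38. The share of all genes passing for sex was not counted in these alternatives. The lower counts can therefore not be read as particular to the members. Within slide 1, KO 2, a female, minus KO 1, a male, had a median of 0.46, with 28 members above 0 and 3 below.

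Whether losing the receptor acts differently in females and in males was asked with the interaction of genotype and sex. No member passed: 0 of 31 at a limma adjusted p under 0.05, against 0.0317% of all genes, while 7 had an unadjusted p under 0.05 (12.5% of all genes). The fitted interaction, the KO effect in females minus that in males, was below 0 for 26 members and above 0 for 5, with a median of -0.44, against 0.020 over all genes. The 7 members were Gbp2 (-1.47, unadjusted p = 0.00469), Igtp (-1.37, 0.00319), Gbp3 (-1.26, 0.00331), Iigp1 (-0.86, 0.00611), Tap1 (-0.81, 0.0109), Ifit1 (-0.65, 0.0148) and Isg15 (-0.54, 0.00853). Leaving out WT 4 or WT 3 leaves 1 WT female, which is assumed to vary like the other groups. Without WT 4 the median interaction was -0.25, with 25 members below 0. Gbp2 stood at -0.77, Igtp at -0.79, Gbp3 at -0.73 and Tap1 at -0.50. Without WT 3 the lone WT female is WT 4, the liver that stood apart. The median was then -0.59, also with 25 members below 0. In that fit Gbp2 stood at -2.16, Igtp at -1.96, Gbp3 at -1.78 and Tap1 at -1.12.

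The same model gave the KO effect in each sex, without a test of the difference beyond that interaction. In females, 3 KO against 2 WT, 6 members were lower in KO and 0 higher, against a background of 2.16% of all genes lower and 4.43% in either direction. They were Isg15 (-0.79, limma adjusted p = 0.00602), Ifit1 (-0.87, 0.0151), Tap1 (-1.01, 0.0161), Usp18 (-0.54, 0.0256), Igtp (-1.10, 0.0397) and Gbp3 (-0.99, 0.0426). In males, 2 KO against 3 WT, 0 passed, against 2.36% of all genes in either direction. The medians over the members were -0.25 in females and 0.053 in males.

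In 13 members every KO female lay below every WT female and in 0 members above, against 19.2% and 21.3% of all genes. In males the KO livers lay below all WT livers in 5 members (Ifit1, Isg15, Usp18, Oasl1 and Ifih1) and above them in 5 (Ifit2, Gbp2, Gbp3, Iigp1 and Igtp), against 17.8% and 14.5% of all genes. Ifit1, Isg15, Usp18 and Ifih1 are thus the 4 members whose KO livers were lower in both sexes with no overlap. Among males the gap was very small for Usp18 (KO 5 at -1.4389, WT 5 at -1.4336) and Ifit1 (KO 5 at -0.7946, WT 5 at -0.7806). It was wider for Isg15 (KO 5 at -0.65, WT 1 at -0.55) and Ifih1 (KO 5 at 2.32, WT 5 at 2.45). The share of all genes with that pattern in both sexes was not counted. For Gbp2, Gbp3 and Igtp the KO livers lay below all WT livers in females and above them in males. Their KO minus WT values were -1.08, -0.99 and -1.10 in females and 0.38, 0.27 and 0.27 in males.

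**Figure D4:**
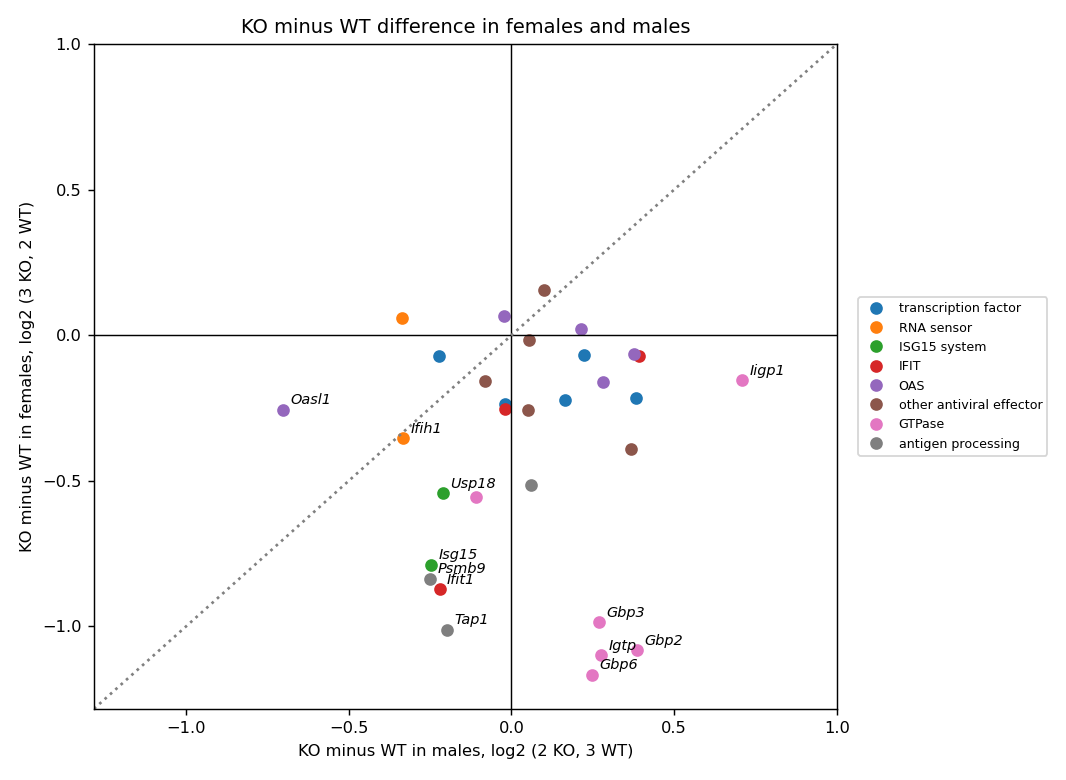
KO minus WT difference on the log2 scale in males (horizontal axis, 2 KO and 3 WT livers) and in females (vertical axis, 3 KO and 2 WT livers) for the 31 tested members, coloured by role; the dotted line marks equal effects. Isg15, Usp18, Ifih1, Ifit1, Psmb9 and Tap1 lie below 0 in both sexes, while Gbp2, Gbp3, Gbp6 and Igtp lie below 0 in females and above 0 in males.

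The female calls changed with the model and with the livers left out. Both WT females were on slide 3 and no KO female was, so among females slide and genotype cannot be told apart directly. With slide as a block, which borrows from the males, 0 members passed in females, against 0.259% of all genes, and the median was -0.11. Without KO 4, 1 member passed in females (Isg15), against 1.4% of all genes, and without KO 3, 2 (Isg15 and Tap1), against 1.62%. Leaving out WT 4 or WT 3 leaves 1 WT female, and the median in females was then -0.25 or -0.37. The sex difference within WT mice, passed by 14 members (2.98% of all genes higher in females), sets slide 3 against slides 1 and 4 in the same way. Within KO mice 5 members passed, Ifit1, Ifit3, Isg15, Usp18 and Rsad2, against 2.66% of all genes.

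The 2 WT females differed from each other by gene group. For the 6 GTPases WT 4 minus WT 3 had a median of 1.12 and for the 3 antigen processing genes 0.90, while it was -0.04 for the Isg15 system, -0.14 for the IFIT genes and -0.09 for the RNA sensors. WT 4 was the highest liver for all 6 GTPases and all 3 antigen processing genes. Gbp6 was 1.83 higher in WT 4 than in WT 3, and Igtp 1.18 higher.

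Some immune cell lists moved with WT 4 and others did not. Its mean over 7 class II antigen presentation genes was 2.76, against 1.18 to 1.77 in the KO livers and 1.31 to 1.57 in the other WT livers. Its mean over 7 T and NK cell markers was 1.40, against 0.69 to 0.83 in KO livers and 0.61 to 0.77 in the other WT livers; Nkg7 and Gzma, which mark cytotoxic lymphocytes, were 1.56 higher than in WT 3, and Cd3d was 1.19 higher, whereas Cd3e, which defines T cells, and Klrb1c, which marks NK cells, differed by -0.35 and -0.16. The leukocyte gene Ptprc was 0.88 higher in WT 4 than in WT 3. WT 4 lay within the range of the other livers for B cell markers (-1.27, against -1.22 to -0.90 in KO livers and -1.60 to -1.14 in the other WT livers) and for dendritic cells (0.52, against 0.37 to 0.57 in KO livers and 0.46 to 0.60 in the other WT livers). It did so too for plasmacytoid dendritic cells (-0.93). Its macrophage mean, 3.80, was above the other WT livers (2.85 to 3.37) and below KO 5 alone among the KO livers (3.21 to 3.90). The macrophage markers were all higher in WT 4 than in WT 3, by 0.12 for Clec4f to 0.72 for Csf1r. Its hepatocyte marker mean, 6.83, was the lowest of the 10 livers. Their part in the values of WT 4 was not tested.

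The rest of the interferon pathway was read from lists of genes other than the members. Of 9 interferon genes listed, 4 were measurable, and 0 of these rose or fell; Ifnb1 was among the 5 not tested. Among the receptor and signalling genes reported here, Ifnar2, a subunit of the type I receptor, was higher in KO livers by 0.29 (limma adjusted p = 0.0267). Irf5, a factor of macrophages and B cells, fell by 0.89 on the log2 scale in KO livers (limma adjusted p = 0.00632) and Stat3, which carries acute-phase cytokine signals, fell by 0.35 (0.0370).

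Of 13 genes that sense nucleic acids, 1 was higher in KO livers, Trim25, the ubiquitin ligase that activates RIG-I, by 0.26 (limma adjusted p = 0.0355), and 0 lower. Of 6 brakes on the pathway 0 passed. Of 41 further interferon-induced genes tested, 2 were higher in KO livers, Cmpk2, a mitochondrial nucleotide kinase, by 0.40 (adjusted p = 0.0197) and Lgals3bp, a secreted glycoprotein, by 0.33 (0.0273). In the same list 2 were lower, Cxcl11, a chemokine for activated T cells, by -0.88 on the log2 scale (limma adjusted p = 9.64e-04) and Lgals9, a galectin, by -0.30 (0.0495). The median over these 41 genes was -0.05 for genotype and 0.33 for sex, and 14 of the 41 were higher in females and 0 lower.

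Cmpk2 averaged 1.52 ± 0.35 in KO livers and 0.98 ± 0.44 in WT livers, and Cxcl11 averaged 0.88 ± 0.30 in KO livers and 1.67 ± 0.28 in WT livers (SD, n = 5 each). Of 12 class I antigen presentation genes tested, 0 passed for genotype, and 3 were higher and 1 lower in females. The 3 constitutive proteasome subunits that Psmb8, Psmb9 and their partner replace had a median of -0.02 for genotype and -0.09 for sex, and 0 of 3 passed for either. Of the 7 class II genes 0 passed for genotype or sex.

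Among the marker lists, 2 of 5 endothelial genes were higher in KO livers, Lyve1 by 1.47 (limma adjusted p = 0.00678) and Pecam1 by 0.26 (0.0458). Stab2, Kdr and Clec4g differed by 0.19, 0.16 and 0.09 and did not pass. The endothelial mean was 3.66 to 3.91 in KO livers, against 2.99 to 3.55 in WT livers, and Lyve1 had the largest part in that gap. Of 4 B cell genes, 1 was higher, Cd79b by 0.48 (limma adjusted p = 0.0324). In the lists for macrophages, plasmacytoid and other dendritic cells, T and NK cells, neutrophils, stellate cells and hepatocytes, 0 genes passed for genotype. The part of any change in cell makeup in the members' differences was not tested.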

How the data were processed

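RNA of 10 mouse livers (5 KO, 5 WT) was measured on 2-colour Agilent arrays, liver in Cy5 and a universal mouse reference in Cy3 on every array, per the labels. The scanner software was Agilent Feature Extraction (10.7 in the submitters' processing notes, 10.7.3.1 in the headers). Mean signal and local background of each spot are deposited as linear intensity, with no background removed and no normalisation, per the file headers. The software's own LogRatio column is deposited as log10 of Cy5 over Cy3, per the file headers. A series-wide value table from the authors was found to be in log2, Cy5 over Cy3, by setting each deposited column against its array (r 0.9994 to 0.9996, column medians 0.00776 to 0.0230); the sources used here do not say how the authors corrected or normalised it.

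Spots that the software marked as non-uniform or outliers (169 to 291 of 45018 per array) were left out. Intensities were background-corrected with normexp (offset 50) and loess-normalised within arrays in limma 3.58.1 (R 4.3.3), with control spots given no weight. Of 41174 probes, the 26933 whose Cy5 signal cleared background well on 4 or more of the 10 arrays were kept, and the probe with the highest mean Cy5 signal stood for each gene, giving 18921 genes; 64 of them lacked a value on some array, none of them a member. Probes were named by RefSeq accession (22951), symbol (6659) or synonym (3109), and 8455 kept the array's name. The limma model held genotype and sex, or both with their interaction, and p-values were adjusted by Benjamini-Hochberg over all genes at 0.05. Scripts were tested on simulated data. The median Cy5 signal over background ran between 58.7 and 134, and the number of arrays limits the precision.

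The members, lists and tests were chosen with earlier results of these data known. Values in every liver are given for members that passed for genotype, sex or the interaction and for the 8 with the largest genotype difference. From the other lists, members that passed for genotype were named, up to 4 a list, with the single markers in WT 4 added after their values were seen; some genes of the receptor and signalling list are not reported here. The alternatives tried were other normalisations, probe filters and models, slide and replicate blocks, array weights and leaving out each liver. The KO effect in each sex with a slide block or without each liver was added after seeing the data.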

Additional observations from a re-analysis of the deposited data

Results flagged for a closer look

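Each of the 31 tested members and the medians over the members were examined in the 5 KO and the 5 WT livers for 1 liver far from the others of its group. Of 64 such groups, 4 held one, and chance marks about 1 in 20. Oas2, an OAS enzyme, was lowest in KO 1 at -1.22, with the next KO liver at -0.82. Iigp1, an immunity-related GTPase, was highest in KO 2 at 7.53, with the next KO liver at 7.26. Irf1, a transcription factor of the interferon gamma response, was highest in WT 4 at 1.08, with the next WT liver at 0.21. Stat2, a subunit of the complex that binds the ISRE, was lowest in WT 5 at 0.89, with the next WT liver at 1.18.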

How the results depend on the processing

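Over all genes, 1127 passed for KO minus WT as reported, and the count moved to 279 with median centring, 337 with outlier spots removed after the background fit, 619 with no sex term and 303 with the replicate block; leaving out 1 liver gave 590 to 1173. Median centring shifts the median of all genes by 0.069, and its calls split into 201 higher and 78 lower in KO livers, against 545 higher and 582 lower as reported; with outlier spots removed later, 198 were higher and 139 lower. The 3 members that passed became 0 with median centring, with outlier spots removed later, with no sex term and with the replicate block, 5 with the Cy5 channel alone and 6 with array weights; leaving out 1 liver gave 0 to 6. Isg15 passed in 16 of 24 alternatives, Ifih1 in 14 and Usp18 in 12, with the same sign in all 24 for each. The members' median KO minus WT was -0.0060 with median centring, against 0.066 over all genes. Within slide 3 it was -0.49, against -0.0011 over all genes. Gbp6 lay between -0.68 and 0.055 without 1 liver and reversed without WT 4, at 0.055. For sex, the 15 members became 8 with outlier spots removed later or slide as a fixed block, 0 with the replicate block, in which only pair 2 differs in sex, and 9 to 15 without 1 liver. The shares of all genes passing for sex in these alternatives were not counted. For the interaction 0 members passed as reported. Its median over the members went from -0.44 to -0.25 without WT 4 and to -0.59 without WT 3, each with 1 WT female left. The 6 members lower in KO females became 0 with slide as a block and 1 to 8 without 1 liver. The labels name no litter, batch or day behind the replicate numbers, and deviations from the group means correlated at 0.53, -0.43, 0.43, 0.51 and 0.22 within the 5 numbers, of which only number 2 joins a female and a male. Of the livers, 2 of 5 KO and 2 of 5 WT correlated best with their own number. Sex was not taken out of these deviations, so livers of the same sex can correlate whatever their number. These values can therefore not show whether the numbers pair the livers. The cause of these changes was not tested. The number of livers, 2 or 3 per genotype and sex, limits every comparison within a sex.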
